A study of Homo sapiens with 14 samples.

Results

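A set of 10 genes of cellular zinc handling was followed through both RNA sequencing tables of this series: the metallothioneins MT1E, MT1F, MT1G, MT1X and MT2A, the transcription factor MTF1, the zinc exporters SLC30A1 and SLC30A4, and the zinc importers SLC39A1 and SLC39A6. They were taken by symbol, and all 10 were listed among the 24199 features of the DU145 table and among the 44591 genes of the LNCaP table. LNCaP is a prostate cancer line of luminal type, and it was sequenced as 1 library of untreated parental cells and 1 library of LNCaP_ENZ cells, which are enzalutamide resistant, were made by 30 days of enzalutamide, a drug used against prostate cancer, and were held in 20 µM of the drug. DU145 is another prostate cancer line. It was sequenced as 3 libraries with a non-target control shRNA (shCON) and 3 with shRNA against the transcription factor PAX6 (shPAX6). All were stably transduced with lentivirus and selected with puromycin. The methods name more than 1 shRNA against PAX6, and the sample titles do not give the one used in each library. The labels do not state whether the 3 libraries of a group came from separate cultures, so p-values measure the spread between these libraries, which may be technical. LNCaP and DU145 were grown in different media, RPMI-1640 and DMEM, both with fetal bovine serum. DU145-shPAX6 cells were studied to learn whether loss of PAX6 lowers neuroendocrine traits, and LNCaP_ENZ cells as a model that gains them.

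Metallothioneins are small cysteine-rich proteins that bind zinc, copper and cadmium, and in humans their genes lie side by side on chromosome 16. Zinc that rises in the cytosol is sensed by MTF1, which binds metal response elements and switches on metallothionein genes and SLC30A1, whose product moves zinc out across the plasma membrane. SLC30A4 loads zinc into vesicles, and SLC39A1 (ZIP1) and SLC39A6 (ZIP6) bring zinc into the cytosol. Normal prostate epithelium holds far more zinc than most tissues, ZIP1 is known as a main uptake route there, and both zinc and citrate fall in prostate cancer.

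Most markers of the lines differed between them in the usual direction, with exceptions. On a length-scaled level rescaled to a sum of 1000000 over the protein-coding genes of both tables, HOXB13 was at 638 in parental and 630 in ENZ cells, and KLK2, TMPRSS2, FOLH1 and HOXB13 were listed at 0 in every DU145 library. VIM ran from 2227 to 3352 in DU145 against 111 and 83.8 in LNCaP, whereas KRT5, which is on the list of DU145 markers, was listed at 0 in all 8 libraries, and EGFR, also on it, was higher in LNCaP (121 and 65.7) than in DU145 (10.3 to 49.9). The neuroendocrine markers CHGA, SYP, INSM1 and NCAM1 stayed between 0 and 1.11 in all libraries, and ENO2 between 8.9 and 74.7. Of the 3 fibroblast markers, COL1A2 and DCN were listed at 0 in all libraries, and COL1A1 was at 13.1 and 7.44 in LNCaP and 0.575 to 1.62 in DU145. Of the 3 leukocyte markers, PTPRC (0.529 and 0.721) and CD3E (1.69 and 2.4) were low in LNCaP and listed at 0 in DU145, and CD14 was at 0 and 0.211 in LNCaP and 0.759 to 2.11 in DU145. The LNCaP libraries held 20468001 (parental) and 17945722 (ENZ) counts, of which the small RNA RN7SK took 12.3% and 13%. The depth of the DU145 libraries is unknown, since the table gives values in FPKM (fragments scaled to transcript length and library size) only. In bulk RNA, fewer cells of a type and less RNA per cell cannot be told apart.

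The targeted gene was low in the knockdown libraries. PAX6 was at 0.839, 1.23 and 1.57 FPKM in the shCON libraries and at 0.0153, 0.274 and 0.0778 FPKM in the shPAX6 libraries, so the groups did not overlap. The log2 fold change was -2.69 (SE 0.49), with an adjusted p = 0.054 in limma and p = 0.1 in a two-sided exact permutation test, the smallest value that 3 against 3 libraries can give. In LNCaP, PAX6 had 11 counts in parental and 4 in ENZ cells.

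The start regions of the genes were read for the core of the metal response element to which MTF1 binds, since MT2A, MT1X and SLC30A1 are its textbook targets. RefSeq promoters (GRCh38.p14) were matched for 7 of the 10 members, and MT1E, MT1F and MT1G had no entry. The 250 bases before each start were searched on both strands for TGCACNC and TGCGCNC. MT2A held 7 matches and MT1X 4. SLC30A1, SLC30A4, SLC39A6 and 1 of the 2 SLC39A1 starts held 1 match each, and MTF1 and the other SLC39A1 start held none. Of 35116 promoter windows of this length, 24.8% held at least 1 match, 0.37% at least 4 and 0.0313% at least 7. The windows of MT2A, MT1X and SLC30A1 follow 5′ to 3′ along the gene, with each match in capitals, as given for chr16:56608334-56608583 (plus strand), chr16:56682220-56682469 (plus strand) and chr1:211579162-211579411 (minus strand). They are shown as the windows of those textbook targets, and a link between the matches and the RNA levels was not tested.
MT2A: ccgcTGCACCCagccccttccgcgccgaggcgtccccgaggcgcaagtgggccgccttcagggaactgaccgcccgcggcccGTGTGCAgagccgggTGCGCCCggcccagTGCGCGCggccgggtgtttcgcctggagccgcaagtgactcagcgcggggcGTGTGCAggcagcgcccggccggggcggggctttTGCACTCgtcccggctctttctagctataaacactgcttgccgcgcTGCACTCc
MT1X: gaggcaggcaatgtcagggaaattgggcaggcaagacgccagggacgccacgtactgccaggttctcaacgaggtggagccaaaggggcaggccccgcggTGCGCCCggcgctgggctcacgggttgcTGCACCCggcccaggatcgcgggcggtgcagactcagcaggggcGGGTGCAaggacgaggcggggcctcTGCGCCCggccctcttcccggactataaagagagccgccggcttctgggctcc
SLC30A1: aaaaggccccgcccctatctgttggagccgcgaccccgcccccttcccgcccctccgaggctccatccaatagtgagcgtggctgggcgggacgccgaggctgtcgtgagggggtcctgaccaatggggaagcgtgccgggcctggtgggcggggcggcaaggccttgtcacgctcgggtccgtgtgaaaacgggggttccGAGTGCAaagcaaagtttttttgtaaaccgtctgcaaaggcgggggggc
The match nearest to the start of MT2A began 8 bases before it, that of MT1X 53 bases and that of SLC30A1 49 bases before it. A match is a string of letters and was not tested as a binding site in these cells.

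In DU145, no member passed the test between shPAX6 and shCON, and the 2 most abundant metallothioneins had the largest differences, both toward higher values with PAX6 knockdown. Of the 9 members tested, 0 passed at an adjusted p under 0.05 (limma, all features), against 1.2% of the 13574 features tested. At an unadjusted p under 0.05 there was 1, MT1E, against 18.3% of features. MT1G was listed at 0 in all 6 libraries and was not tested. MT1E was also the only member whose groups did not overlap, which held for 26.7% of features in either direction and for 6.7% in the direction of higher shPAX6. The plot of FPKM by library shows each value.

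**Figure D1:**
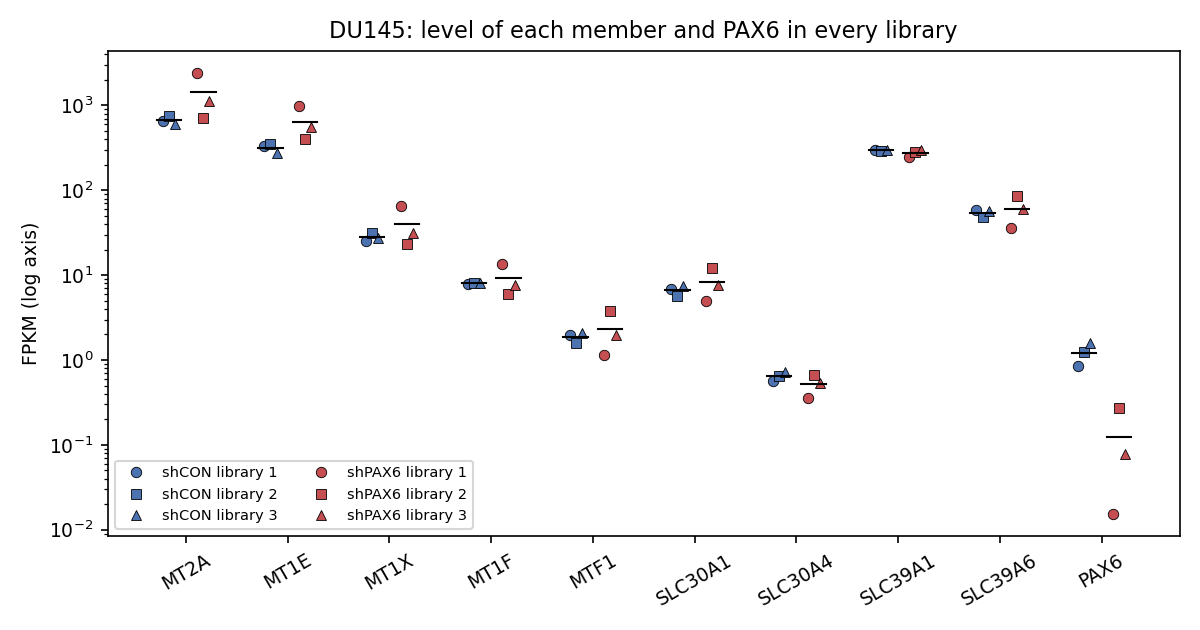
FPKM (log axis) of 9 members and PAX6 in the 3 shCON (blue) and 3 shPAX6 (red) DU145 libraries, where the marker shape gives the library number and the bar the group mean. The shPAX6 libraries spread far more than the shCON libraries for most members, and shPAX6 library 1 is highest for all 4 metallothioneins shown and lowest for MTF1 and all 4 transporters. MT1G, listed at 0, is left out.

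MT2A, the most abundant metallothionein, was at 654, 750 and 611 FPKM in shCON libraries 1 to 3 and at 2423, 705 and 1142 FPKM in shPAX6 libraries 1 to 3. Libraries 1 and 3 of shPAX6 lay above every control, and library 2 lay between the controls. The group means were 672 ± 71.4 and 1423 ± 893 (SD, n = 3), a log2 fold change of 0.90 (SE 0.41, 95% interval -0.05 to 1.85, adjusted p = 0.3 in limma).
MT1E was at 330, 350 and 272 FPKM in shCON and at 984, 399 and 551 FPKM in shPAX6 libraries. All 3 shPAX6 values exceeded the highest control, though library 2 by little. The log2 fold change was 0.93 (SE 0.31, interval 0.20 to 1.66, adjusted p = 0.19 in limma).
MT1X was at 25.4, 31.8 and 27.1 FPKM in shCON and at 65.7, 23.1 and 31.5 FPKM in shPAX6. MT1F was at 7.79, 8.13 and 8.11 FPKM in shCON and at 13.7, 6.01 and 7.73 FPKM in shPAX6. For both, shPAX6 library 1 was above and library 2 below every control, so the groups overlapped. Their log2 fold changes were 0.38 (SE 0.35, interval -0.44 to 1.20) and 0.10 (SE 0.29, interval -0.57 to 0.77), and neither passed in limma (adjusted p = 0.64 and 0.9).
The control libraries were close to each other for all these genes, with a highest value 1.04 to 1.29 times the lowest, whereas in shPAX6 the highest was 2.27 to 3.44 times the lowest. The transcripts of the cluster are alike, with an identity of 73.6 to 87.6% between pairs of 7 metallothioneins and shared runs of 32 to 96 bases. How reads that fit more than 1 of them were counted is not stated, so the split between MT1 and MT2 genes is uncertain.

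MTF1 and all 4 transporters were lowest in shPAX6 library 1, where the metallothioneins were highest. MTF1 was at 1.99, 1.58 and 2.07 FPKM in shCON and at 1.15, 3.81 and 1.96 FPKM in shPAX6. SLC30A1 was at 6.94, 5.62 and 7.5 FPKM in shCON and at 5, 12 and 7.75 FPKM in shPAX6. SLC39A6, an importer that is also known as an estrogen-regulated gene in breast cancer, was at 58.8, 47.9 and 57.2 FPKM in shCON and at 35.6, 85.2 and 60 FPKM in shPAX6. In each of these 3 genes, shPAX6 library 1 lay below and library 2 above all 3 controls. The log2 fold changes were 0.13 (interval -0.81 to 1.08) for MTF1, 0.22 (-0.50 to 0.94) for SLC30A1 and 0.06 (-0.63 to 0.75) for SLC39A6, with adjusted p of 0.91, 0.77 and 0.95 in limma, and that of each was below 0 without shPAX6 library 2.
SLC39A1 was the steadiest member, at 298, 293 and 301 FPKM in shCON and at 245, 286 and 301 FPKM in shPAX6. Its log2 fold change was -0.11 (SE 0.13, adjusted p = 0.74 in limma), and the interval from -0.42 to 0.21 bounds a difference in either direction, while its sign turned with median centring (0.07) and with length correction (0.03). Exons of SLC39A1 overlap CREB3L4 on the other strand, which was at 9.58 to 11 FPKM in shCON and 6.8 to 7.97 in shPAX6.
SLC30A4 was near the lower limit of the test, at 0.569, 0.655 and 0.715 FPKM in shCON and at 0.354, 0.662 and 0.54 FPKM in shPAX6 (log2 fold change -0.30, SE 0.31, adjusted p = 0.67 in limma, and 0.02 with quantile normalization). Its exons overlap SLC30A4-AS1 and HMGN2P46 on the other strand. Whether counting used the strand is not stated, so reads of overlapping genes on opposite strands cannot be told apart. Exons of SLC39A1, SLC39A6 and MT1X also overlap other annotated genes on the same strand, where the strand would not separate the reads.

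The order of the shPAX6 libraries followed transcript length across the whole table, which touches every member. By the annotation, the 5 metallothionein transcripts have 401 to 746 bases, SLC39A1 2038, SLC39A6 3566, SLC30A1 5893, SLC30A4 7110 and MTF1 7937 bases. In shPAX6 library 1, the median deviation from the shCON mean was 0.69 on the log2 scale for 88 features under 500 bases and fell to -0.75 for 943 features of 8000 bases or more. In shPAX6 library 2 it ran the other way, from -0.33 to 0.47, and in library 3 from 0.01 to -0.14. Spearman's rho between length and deviation over 12009 features with a length was -0.61, 0.61 and -0.16 in shPAX6 libraries 1 to 3 and between -0.20 and 0.28 in the shCON libraries. These features share the library, so this is a description.

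**Figure D2:**
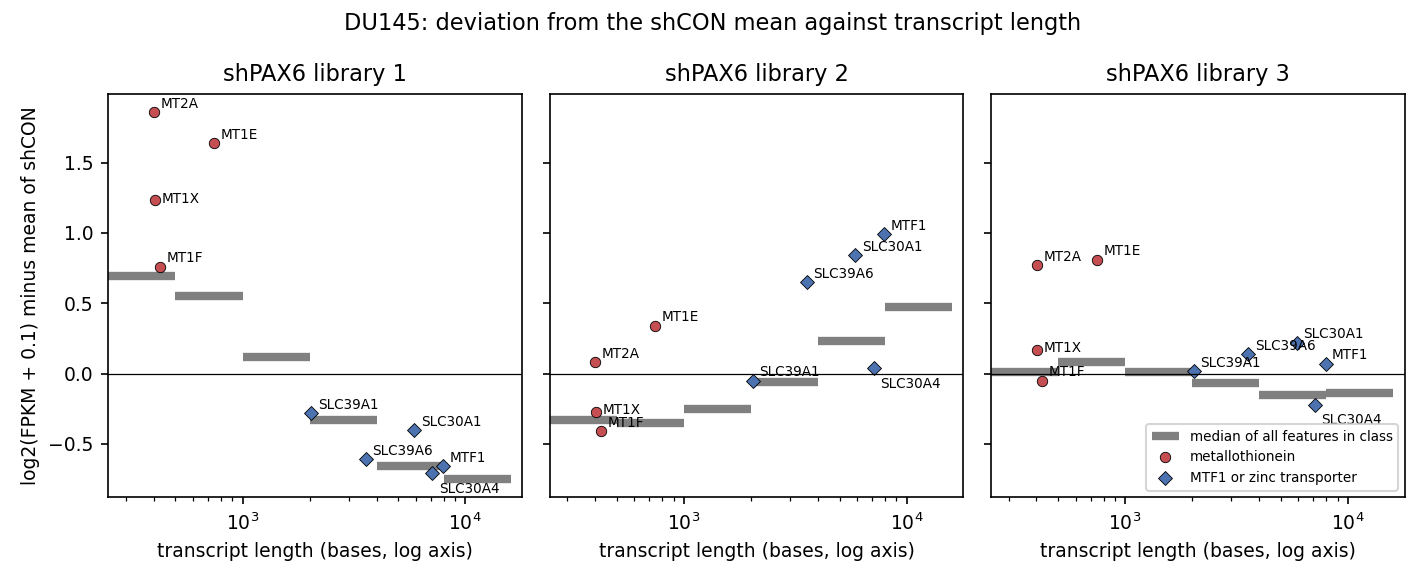
Deviation of log2(FPKM + 0.1) from the shCON mean against transcript length (log axis) in each shPAX6 library, with metallothioneins as red circles and MTF1 and the transporters as blue diamonds. Grey bars are medians of all tested features in 6 length classes, the outer 2 of which are open-ended (0 to 500 bases, and 8000 bases or more). MT2A and MT1E lie above the bar of their class in all 3 libraries, while MT1F lies close to it.

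Against the median of their length class, MT2A and MT1E stood higher in all 3 shPAX6 libraries. A median leaves other features of the class above it, and how many stood above it in all 3 libraries was not counted. MT2A deviated by 1.86, 0.08 and 0.77 in libraries 1 to 3 and MT1E by 1.64, 0.34 and 0.81, where class medians were 0.69, -0.33 and 0.01 for MT2A and 0.55, -0.35 and 0.08 for MT1E. MT1F, at 0.76, -0.41 and -0.05, followed its class, and MT1X, at 1.23, -0.27 and 0.17, was above it mainly in library 1.
With the trend in length removed from each library by a loess curve, a correction chosen after the trend was seen, the MT1E deviations became 1.22, 0.73 and 0.84 and those of MT2A 1.46, 0.4 and 0.84, against -0.17 to 0.11 in the controls. The log2 fold change of MT1E stayed at 0.93 with an SE of 0.14 (adjusted p = 0.013 in limma), and that of MT2A stayed at 0.90 with an SE of 0.24 (adjusted p = 0.052). So 1 of 9 members passed, while 11.3% of 12009 features passed in either direction and 5.74% toward higher shPAX6. With GC content corrected as well, MT1E (0.93, adjusted p = 0.016 in limma) and MT2A (0.95, adjusted p = 0.04) both passed, beside 10.9% of features in either direction and 6.22% toward higher shPAX6. Correction for length left SLC30A1 at 0.28, 0.62 and 0.4, MTF1 at 0.08, 0.63 and 0.25, and SLC39A1 at -0.15, 0.15 and 0.1 in the 3 shPAX6 libraries.
On the values as deposited, single libraries changed the outcome. Without shPAX6 library 2, MT1E and MT2A passed (1.22, adjusted p = 0.031, and 1.31, adjusted p = 0.039, in limma). In that fit 899 of 13562 features passed, 186 of them toward higher shPAX6, compared with 163 of 13574 with all libraries. Without shPAX6 library 1, MT1E fell to 0.57 (adjusted p = 0.087) and MT2A to 0.42 (adjusted p = 0.23).

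Ratios between metallothioneins were also taken within each library, where the transcripts of MT2A, MT1X and MT1F have 401 to 425 bases and that of MT1E has 746. MT1E relative to MT1F was 42.3, 43 and 33.5 in shCON and 72, 66.3 and 71.4 in shPAX6. MT2A relative to MT1F was 83.9, 92.2 and 75.3 in shCON and 177, 117 and 148 in shPAX6. The shPAX6 ratios exceeded all control ratios for both, as they did for MT1E to MT1X (10 to 13 against 15 to 17.5) and for MT2A to MT1X (22.5 to 25.8 against 30.5 to 36.9). For each of these 4 ratios the two-sided exact permutation p was 0.1, the smallest that 3 against 3 allows, and the ratios were chosen after the values were seen. The 4 ratios share their genes and are not independent. How many other pairs of genes had ratios without overlap was not counted. Of single features, 26.7% did not overlap between the groups. MT1E to MT2A was 0.445 to 0.504 in shCON and 0.406 to 0.565 in shPAX6, overlapping (exact permutation p = 0.9), and so did MT1X to MT1F, at 3.26 to 3.91 and 3.85 to 4.8 (exact permutation p = 0.2). A ratio does not say which gene of a pair differed, and the uncertain split of reads between these genes applies to it.

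**Figure D3:**
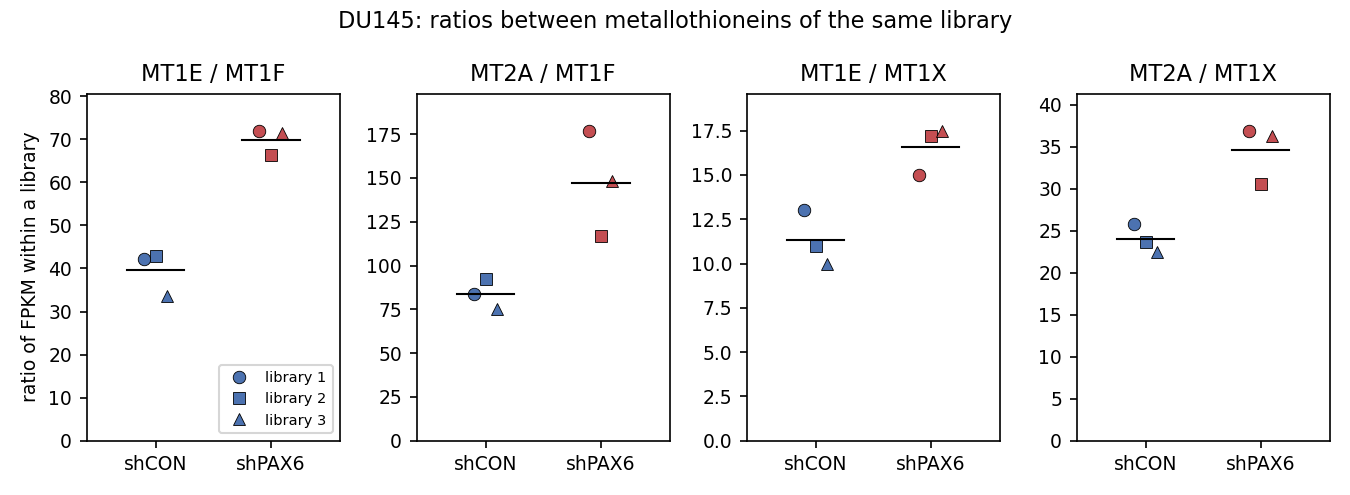
Ratios of FPKM between metallothioneins within each DU145 library (axes from 0), with shCON in blue, shPAX6 in red, the marker shape for the library number and the bar for the group mean. All 3 shPAX6 libraries lie above all 3 shCON libraries in each of the 4 ratios shown, by the least for MT1E to MT1X (15 against 13). The ratios MT1E to MT2A and MT1X to MT1F, in which the groups overlapped, are left out.

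The features whose values over the 6 DU145 libraries were most like those of MT2A were not metallothioneins. Among 13574 features, Pearson's r of log2(FPKM + 0.1) with MT2A was 0.999 for TRAPPC1 and TAX1BP3, 0.998 for NPC2 and RRP36, and 0.997 for a feature that the table names only as a new gene. TRAPPC1 was at 125 to 137 FPKM in shCON and at 294, 136 and 185 FPKM in shPAX6. The transcripts of the 4 named genes have 812 to 1280 bases, somewhat longer than those of the metallothioneins and shorter than those of MTF1 and the transporters, and all values come from the same 6 libraries. Within the members, r with MT2A was 0.98 for MT1E, 0.94 for MT1X and 0.83 for MT1F, and negative for MTF1 (-0.65), SLC30A1 (-0.53), SLC39A6 (-0.70), SLC39A1 (-0.86) and SLC30A4 (-0.95).

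Among related gene groups in DU145, NQO1 was the one gene that passed on the values as deposited. Of the other metallothioneins, MT1M was at 5.37, 4.95 and 5.66 FPKM in shCON and at 14.8, 7.81 and 10.4 FPKM in shPAX6, without overlap (log2 fold change 0.99, SE 0.24, adjusted p = 0.098 in limma). After length correction it stood at 0.99 (SE 0.13, adjusted p = 0.009 in limma), where 5.74% of 12009 features passed toward higher shPAX6. MT1A, at 10.7 to 11.3 FPKM in shCON and 5.9 to 18.4 in shPAX6, overlapped (-0.18, adjusted p = 0.85), and MT1H was listed at 0 throughout.
Of the other zinc exporters, 0 of 6 tested passed (median log2 fold change -0.02). The largest differences were TMEM163, a vesicular zinc transporter, at 1.48 to 1.9 FPKM in shCON and 0.499 to 0.875 in shPAX6 (-1.13, adjusted p = 0.1 in limma), and SLC30A7, a Golgi exporter (0.26, adjusted p = 0.72). Of the other zinc importers, 0 of 9 passed (median -0.18), with SLC39A10 at -0.39 (adjusted p = 0.7) and SLC39A8 at 0.20 (adjusted p = 0.61). The median over all 13574 features was -0.12.
Of 13 copper genes, 0 passed (median 0.07), the extremes being STEAP2, a metal reductase (0.53, adjusted p = 0.27), and the copper pump ATP7B (-0.61, adjusted p = 0.5). Of 10 citrate and mitochondrial enzyme genes, 0 passed (median -0.09). IDH2, the mitochondrial NADP-dependent isocitrate dehydrogenase, was at 26.8, 28.5 and 31 FPKM in shCON and at 17.2, 16.1 and 19.1 in shPAX6, without overlap (-0.72, SE 0.13, adjusted p = 0.056 in limma).
The list of oxidative stress genes controlled by NFE2L2 had 1 of 12 past the test. Of all features, 1.2% passed in either direction and 0.177% toward higher shPAX6. Like the others, this list was chosen with earlier results of these data known. NQO1, a quinone reductase, was at 493, 448 and 405 FPKM in shCON and at 952, 786 and 863 in shPAX6 (0.95, SE 0.15, adjusted p = 0.04 in limma). Its call was lost without shCON library 1, 2 or 3 (adjusted p = 0.19, 0.27 and 0.3) and without shPAX6 library 3 (0.19), with log2 fold changes of 0.88 to 1.02. It was also lost with GC correction (adjusted p = 0.097), median centring (0.11), quantile normalization (0.057), no filter (0.066) and the replicate block (0.25), in limma. With length correction NQO1 passed (adjusted p = 0.0054 in limma), as did 5.74% of features toward higher shPAX6. All 12 genes of this list had a log2 fold change above 0 (median 0.37), beside 5032 of 13574 features. FTL, at 0.78 (adjusted p = 0.18; named after its value was seen), encodes the light chain of ferritin, the iron store of the cell.
Glucocorticoids are also known inducers of MT2A, and of 8 steroid-responsive genes tested 0 passed (median -0.23). TSC22D3, a classical glucocorticoid target, was at 3.75 to 4.72 FPKM in shCON and 5.2 to 7.98 in shPAX6 (0.63, adjusted p = 0.19 in limma), while PER1, another, was at 2.55 to 3.18 and 1.43 to 1.62 (-0.91, adjusted p = 0.081).

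In LNCaP, the members differed little between parental and ENZ cells. SLC39A6, MTF1 and MT1F were lower in ENZ cells, by amounts that many expressed genes also showed. A ratio as low as that of SLC39A6 was seen in 16.2% of them and one as low as that of MTF1 in 28.6%. Like MT1F, 9.57% lay past 2-fold toward lower ENZ. With 1 library per group there is no replicate check, and the intervals below reflect counting error alone and set one library against another. Values are counts per 1000000 (CPM), and the log2 ratio is that of ENZ over parental CPM + 0.1. Genes averaging 1 CPM or more, 14767 in all, had a median log2 ratio of -0.15, and each ratio is also given relative to it.
MT2A had 2516 and 2045 counts, or 123 and 114 CPM in parental and ENZ cells. Its log2 ratio was -0.11 (95% interval -0.19 to -0.02), 0.05 above the median gene, so its sign depends on the scaling. MT1X had 203 and 175 counts (log2 ratio -0.02, interval -0.32 to 0.27), 0.13 above the median gene.
MT1F had 34 and 11 counts, or 1.66 and 0.613 CPM, and its log2 ratio was -1.30 (interval -2.57 to -0.42). Of the 8 members at that level, it was the 1 that lay past 2-fold, as did 11.4% of such genes in either direction, 9.57% toward lower and 1.84% toward higher ENZ. With a pseudocount of 1 it did not lie past 2-fold. MT1E had 1 count in each library, under the floor of 3 counts (0.147 and 0.167 CPM). MT1G had 0 counts in both, with exact 95% upper limits of 0.18 CPM in parental and 0.206 CPM in ENZ cells. For neither gene was a difference detectable at this depth.
MTF1 had 603 and 377 counts, or 29.5 and 21 CPM (log2 ratio -0.49, interval -0.68 to -0.30), which is 0.33 below the median gene. Of expressed genes, 28.6% had a ratio as low or lower.
SLC39A6 had 1356 and 697 counts, or 66.2 and 38.8 CPM (log2 ratio -0.77, interval -0.90 to -0.64), 0.61 below the median gene. Of expressed genes, 16.2% had a ratio as low or lower.
SLC30A4 had 6804 and 5895 counts, or 332 and 328 CPM (log2 ratio -0.02, interval -0.07 to 0.03), and SLC39A1 had 2151 and 1861 counts, or 105 and 104 CPM (-0.02, interval -0.11 to 0.07). Both were 0.14 above the median gene. SLC30A1, with 173 and 135 counts, had a log2 ratio of -0.17 (interval -0.50 to 0.17), 0.01 below the median gene. HMGN2P46, which overlaps SLC30A4 on the other strand, had 126 and 257 counts, few beside those of SLC30A4, and CREB3L4 beside SLC39A1 had 697 and 440. All 8 members averaging 1 CPM or more had a ratio below 0, as did 62.3% of such genes, and relative to the median gene 4 lay above 0 and 4 below.

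**Figure D4:**
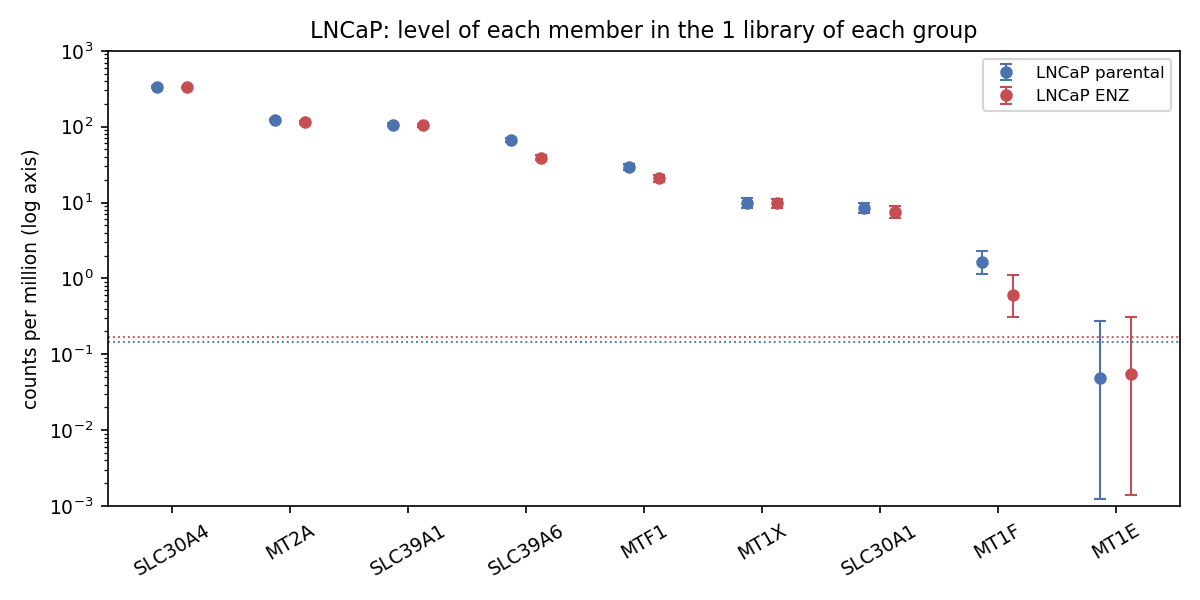
CPM (log axis) of 9 members in the parental (blue) and ENZ (red) LNCaP library, with exact 95% counting intervals and the floor of 3 counts as dotted lines. SLC39A6, MTF1 and MT1F are lower in ENZ cells with intervals that do not meet, and MT1E lies under the floor in both. MT1G, with 0 counts, is left out.

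Around the members, zinc genes of LNCaP that lay past 2-fold did so toward lower ENZ, as did 83.9% of all genes past 2-fold. Of the other exporters, TMEM163 (51 and 11 counts, log2 ratio -1.86) and SLC30A9 (934 and 331 counts, -1.30; named after its value was seen) lay past it, while SLC30A3 was highest (39 and 50 counts, 0.53). Of the other importers, SLC39A10, the closest relative of SLC39A6, had 1945 and 589 counts (-1.53), and SLC39A4 had 928 and 1258 counts (0.63). The medians were -0.26 for 6 exporters and 0.00 for 9 importers. MT1DP, a transcribed pseudogene of the cluster, had 37 and 26 counts, and MT1A, MT1M and MT1H had 0.
Of the copper genes, the copper pump ATP7A had 597 and 234 counts (-1.16) and SCO2, a copper chaperone of cytochrome oxidase, 574 and 779 (0.63), with a list median of 0.20. ANKH, which exports citrate and pyrophosphate, had 2359 and 1012 counts (-1.03), and IDH1 had 2772 and 3067 (0.34), with a list median of -0.06. In the NFE2L2 list, NQO1 had 804 and 1834 counts (1.38), FTH1, the ferritin heavy chain, 33084 and 61336 (1.08; named after its value was seen), and SLC7A11, the cystine importer, 1006 and 390 (-1.17), with a list median of 0.32. In the steroid-responsive list, NR3C1, the glucocorticoid receptor, had 44 and 142 counts (1.83) and ZBTB16, a glucocorticoid target, 395 and 7 (-5.31). Beside ZBTB16, PER1 (-1.12), KLF9 (-1.30) and ERRFI1 (-1.05) lay past 2-fold toward lower ENZ, the last 3 named after their values were seen. NR3C1 was the 1 gene of the list past it toward higher ENZ, and 83.9% of all genes past 2-fold were lower in ENZ.

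The repertoire of metallothioneins and transporters differed between the lines. The tables were normalized separately, so levels were rescaled to a sum of 1000000 over the 18702 protein-coding genes present in both and set side by side with no test. MT1E was at 0.337 in parental and 0.377 in ENZ cells, from 1 count each, but at 631 to 1865 in the 6 DU145 libraries. SLC30A4 went the other way, at 150 and 146 in LNCaP and 0.67 to 1.66 in DU145. SLC39A1 was at 118 and 115 in LNCaP and 464 to 699 in DU145. For these 3 genes the ranges of the lines were far apart.
MT2A was the highest member everywhere, at 1024 and 931 in LNCaP and 1417 to 4593 in DU145, above 99.3% of genes in parental LNCaP. It made up 91.3 and 91.4% of the summed level of the 5 metallothioneins in LNCaP and 62.2 to 69.5% in DU145, where MT1E made up 28.2 to 35.2%. MT1X was at 85.7 and 82.7 in LNCaP, inside its DU145 range of 56.6 to 124. MT1F was at 12 and 4.35 in LNCaP and 14.7 to 25.9 in DU145. SLC39A6 was at 62.8 and 36.2 in LNCaP, below its DU145 range of 67.5 to 208. SLC30A1, at 14.6 and 12.8, lay inside its DU145 range of 9.48 to 29.2, and MTF1 was at 12.9 and 9.03 against 2.18 to 9.31.

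**Figure D5:**
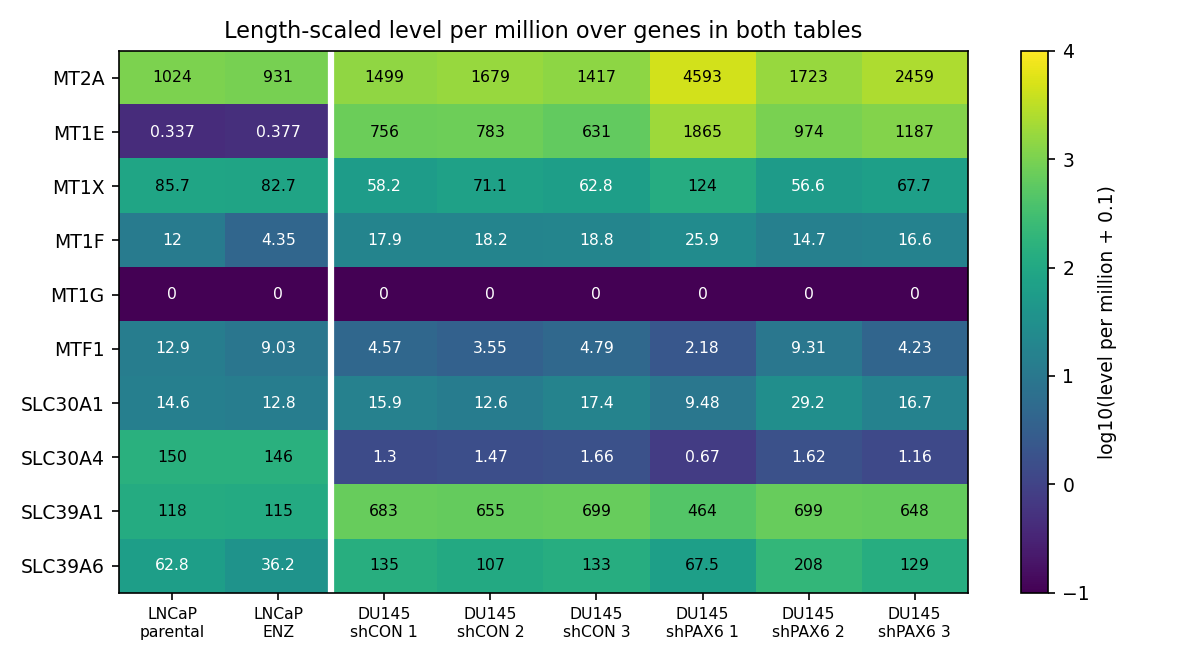
Length-scaled level of the 10 members in all 8 libraries, per 1000000 over the protein-coding genes found in both tables, with the colour on a log10 scale and the value printed in each cell. MT2A, MT1E, MT1F, SLC39A1 and SLC39A6 are higher in all DU145 libraries than in either LNCaP library. SLC30A4 is higher in both LNCaP libraries, and MT1G is at 0 in all 8. Each line has its own table, so a difference of line and one of table cannot be told apart.

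By level, the order in DU145 was MT2A, MT1E, SLC39A1, SLC39A6, MT1X, MT1F, SLC30A1, MTF1, SLC30A4 and MT1G. Ranges over the 6 libraries overlapped between MT2A and MT1E, MT1E and SLC39A1, SLC39A6 and MT1X, and MT1F and SLC30A1, while SLC30A1, MTF1 and SLC30A4 were apart. In LNCaP the order was MT2A, SLC30A4, SLC39A1, MT1X, SLC39A6, SLC30A1, MTF1, MT1F, MT1E and MT1G. There, the values of SLC30A1 and MTF1, and of MTF1 and MT1F, overlapped over the 2 libraries.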

How the data were processed

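The members, pathway lists and markers were chosen with earlier results of these data known, and 1 marker is not reported here. Samples were grouped by their labels, which give 1 library per LNCaP group where the methods state 3 replicates per line, and which describe the library preparation differently from the methods. The 6 ATAC-seq samples were not analysed here.

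Reads were aligned to GRCh37 with HISAT2 and quantified with StringTie, per the methods. The deposited LNCaP table holds raw counts, TPM and gene length by symbol, and the authors' TPM equal counts over length, rescaled. The deposited DU145 values were taken as FPKM, a unit the table does not name, so no count test such as the DESeq2 test of the methods was run. In 360 low features no step of whole reads was found (at most 1.39% of ratios in the same bin).

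DU145 was tested with limma 3.58.1 (lmFit, eBayes with a trend) in R 4.3.3 on log2(FPKM + 0.1), two-sided, over features averaging 0.5 or more, and p-values were adjusted by Benjamini-Hochberg (threshold 0.05). The pseudocount understates changes of low genes. LNCaP ratios carry exact Clopper-Pearson intervals at 95%, computed without a pseudocount. The steps were tested on simulated data. Length and GC content of the canonical transcript were found for 12009 of 13574 features (88.5%).

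Named were all members, PAX6, list genes past the test or else the largest difference in each direction, the largest LNCaP ratio in each direction, and the 5 features most like MT2A. Alternatives were other pseudocounts, filters and scalings, GC correction, a replicate block and each library left out. Length corrections and the scale over shared genes were added after the data were seen.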

Additional observations from a re-analysis of the deposited data

How the results depend on the processing

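In DU145, 163 features passed on the values as deposited. This count became 108 without a filter, 100 with median centring, 84 with values rescaled to the same sum per library, 1361 with length correction and 1308 with GC and length correction, and ran from 0 to 924 when 1 library was left out. It was 0 without shCON library 1 or 3, 5 without shCON library 2, and 924, 899 and 10 without shPAX6 libraries 1, 2 and 3. Of all calls 85.3% were toward lower shPAX6, a share of 72% with median centring, 68.6% with quantile normalization, 49.4% with length correction and 42.9% with GC and length correction. The number of members that passed became 1 with length correction and 2 with GC and length correction, and ran from 0 to 2 when 1 library was left out.
With the replicate number as a block, 0 features passed and 1568 had an unadjusted p under 0.05, compared with 2480 in the fit without one. The labels do not say that a shared number marks a shared culture or day, so the block was kept as an alternative only. Same-numbered libraries deviated with correlations of -0.17, -0.37 and 0.05. These values cannot exclude a pairing, since the length trends of the libraries also enter them.
The log2 fold change of SLC39A1 turned from -0.11 to 0.07 with median centring, 0.18 with GC correction, 0.03 with length correction and 0.12 with both. SLC30A4 turned to 0.02 with quantile normalization, and SLC39A6 to -0.03 rescaled to the same sum. With 1 library left out, values ran from -0.23 to 0.36 for MT1F, -0.05 to 0.70 for MT1X, -0.29 to 0.53 for MTF1, -0.09 to 0.53 for SLC30A1 and -0.23 to 0.39 for SLC39A6. The sign of MT1E and MT2A was positive under every alternative tried, and their adjusted p ranged from 0.013 to 0.58 and from 0.039 to 0.68. The cause of these shifts was not tested.
In LNCaP, 1684 genes lay past 2-fold. With a pseudocount of 1 it was 1054, with a mean CPM of at least 5 it was 874, and without a filter 6120. The count of members past 2-fold was 0 with a pseudocount of 1, and 0 at a mean CPM of at least 5, where MT1F is no longer among the genes compared. Scaling by edgeR TMM factors put MT2A at 0.04, SLC30A4 and SLC39A1 at 0.13 and SLC39A6 at -0.62. The 3 libraries per DU145 group, the 1 per LNCaP group and the unknown depth of DU145 limit these results.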
